A study of Tabanus nipponicus with 3 samples.

Results

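Unigenes named for lipases, fatty acid metabolism and sterol transport were described in the midgut of the horse fly Tabanus nipponicus, whose family, Tabanidae, has blood-feeding females. The libraries came from 3 adult females caught in the wild. A unigene is a transcript that was put together from reads with no genome as a guide, and it is named after its best protein hit in another species. Members were chosen by name alone: the first title of the hit had to hold 1 of 13 words or phrases, such as lipase, fatty acid synthase, acyl-CoA, sterol carrier or NPC intracellular cholesterol, and none of 4 others, phospholipase, venom, vitellogenin and apolipo. The rule found 58 of 8039 unigenes. Each library came from the midgut of 1 fly, dissected under sterile conditions, and all flies belonged to 1 wild-type group with no stated treatment. They are called fly 1, fly 2 and fly 3, after the replicate numbers in the labels. Neither feeding state nor age is given in the sources used here.

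Dietary fat is mostly triacylglycerol, which insects split in the gut lumen with secreted lipases. Enterocytes take up the fatty acids, bind them to small carrier proteins, activate them as acyl-CoA, rebuild them into storage lipids or burn them by beta-oxidation in mitochondria. Cells can also make fatty acids from acetyl-CoA with fatty acid synthase, then lengthen them with elongases, add double bonds with desaturases and reduce them to alcohols with fatty acyl-CoA reductases. Insects cannot make sterols and must absorb them from food, and Niemann-Pick type C (NPC) proteins carry sterols across membranes and between them.

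Reads assigned to the unigenes came to 29308867 to 33797869 per library, recovered from the deposited values in units of what 1 read is worth. Reads outside the unigenes cannot be recovered from these values. Values are FPKM, reads scaled to transcript length and to depth. With 1 group and no contrast in the labels, no test was made, and a difference between flies is a difference between 3 individuals. The median squared difference between a pair of flies was 9.78 to 38.8 times the counting variance, a ratio that also holds the overall shifts between libraries. Over the 7384 unigenes whose mean reached 1 FPKM, fly 1 differed from the other flies by a median of -0.05 on the log2 scale, fly 2 by -0.33 and fly 3 by 0.42. Another scaling, by median-of-ratios size factors of 0.976, 0.838 and 1.27, removed most of that shift, and where an order of flies is counted over unigenes with a mean of at least 5 FPKM, the count is given under both scalings. A lower level of a transcript can come from fewer cells of a type or from less RNA per cell, and these cannot be told apart here.

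The names fall into 8 functions: 7 secreted-type lipases, 4 intracellular lipases, 4 carriers of fatty acids and acyl-CoA, 19 enzymes of fatty acid synthesis, elongation, desaturation and reduction, 2 storage proteins, 11 enzymes that oxidise or cleave acyl-CoA, 3 other acyl-CoA enzymes and 8 sterol transport proteins. No name held perilipin, Niemann-Pick or microsomal triglyceride, which says only that no first title in the table used these words. The best hits lay in 14 insect species, 29 of them in the black soldier fly Hermetia illucens, with 40% to 92.3% identical residues and a median of 71.2%. For 38 members the alignment covered at least 80% of the hit, and for 10 it covered under 50%, so several members may be incomplete. A set of 6 members shared their best hit with another member, and reads of such pairs may be divided in ways the table does not show.

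Members made up 1.00% of the summed FPKM of fly 1, 0.9501% of that of fly 2 and 0.593% of that of fly 3, a mean of 0.848% ± 0.223 (SD, n = 3). In flies 1 and 2 most of that was 1 lipase. The median member had a mean of 11.9 FPKM, against 8.69 over all unigenes, and 3 members were above 100 FPKM, 31 between 10 and 100, 22 between 1 and 10, and 2 under 1. An FPKM of at least 1 in every fly was reached by 42 of the 58, and by 81.6% of all unigenes. The members varied more between flies than the typical unigene, with a median coefficient of variation of 33.9% for the 42 members with a mean of at least 5 FPKM, against 26.6% for all such unigenes. The counting error in the lowest fly of those members had a median of 5.24%. The median between-fly SD on the log2 scale was 0.53 for members with a mean of at least 1 FPKM. It was 0.48 without the synthesis enzymes, against 0.38 over all unigenes.

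**Figure D1:**
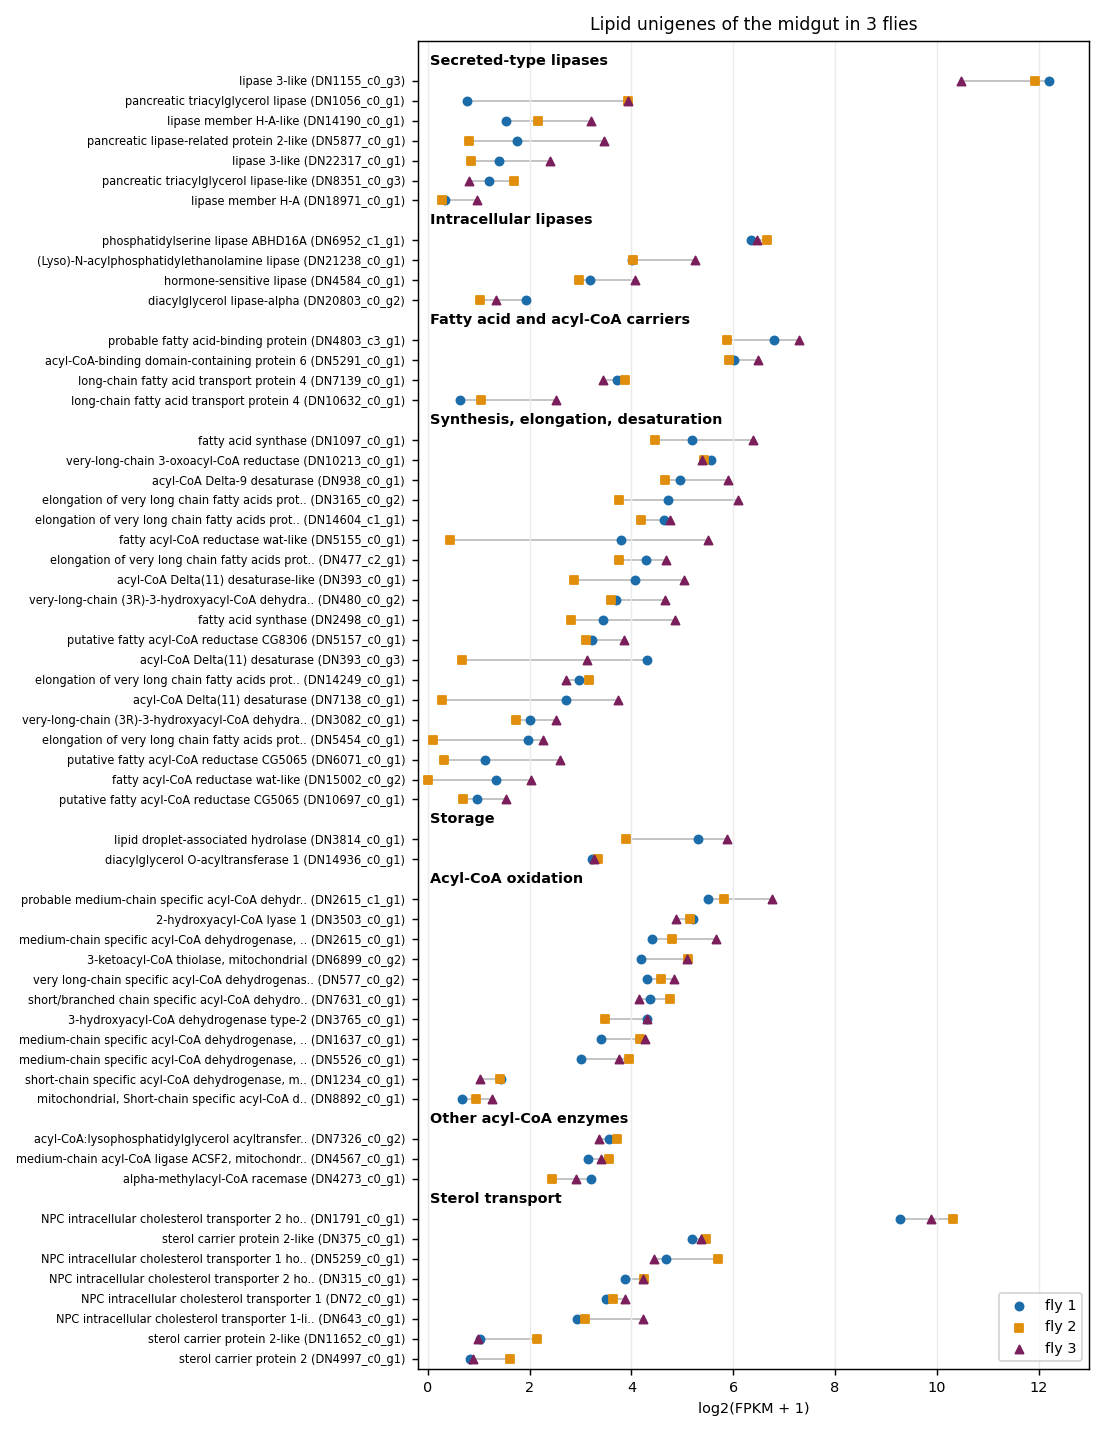
Level of each of the 58 members in each fly, as log2(FPKM + 1), grouped by function and ordered by mean FPKM. Points are flies and the grey line joins the lowest to the highest. Lipase 3-like (DN1155) and an NPC intracellular cholesterol transporter 2 homolog (DN1791) lie far to the right, and squares of fly 2 lie at the left end for most of the synthesis enzymes.

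Secreted-type lipases, named after enzymes that act on fat outside the cell, were dominated by lipase 3-like (TRINITY_DN1155_c0_g3_i7, 2766 bases). It stood at 4744, 3882 and 1415 FPKM in flies 1, 2 and 3 and ranked 24 among all unigenes by mean. It was high in flies 1 and 2 and lowest in fly 3, where it was still backed by 57364 fragments. It alone made up 99.8%, 99.4% and 97.4% of the FPKM of its group and 75.3%, 64.3% and 37.2% of the FPKM of all 58 members. The other 6 secreted-type lipases had means of 0.48 to 9.78 FPKM. A second lipase 3-like unigene (TRINITY_DN22317_c0_g1_i2) had the same best hit over nearly the same residues but stood at only 1.64, 0.795 and 4.29 FPKM, and its highest fly was the lowest fly of the dominant unigene.

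The low secreted-type lipases differed in their order of flies. Pancreatic triacylglycerol lipase-like (TRINITY_DN8351_c0_g3_i9), at 1.31, 2.22 and 0.7499 FPKM, was lowest in fly 3 like the dominant unigene. Pancreatic triacylglycerol lipase (TRINITY_DN1056_c0_g1_i22), named after the vertebrate enzyme that splits dietary fat, was at 0.709 FPKM in fly 1 and at 14.3 in both other flies. Its counts were 32, 673 and 584 fragments, and the 95% Poisson interval of fly 1, 0.493 to 1.02 FPKM, covers counting error only. Fly 1 thus stood apart for this lipase, while fly 3 stood apart for lipase 3-like. Lipase member H-A-like (TRINITY_DN14190_c0_g1_i5), from a family named for phosphatidic acid-selective lipases, was at 1.91, 3.51 and 8.21 FPKM, and pancreatic lipase-related protein 2-like (TRINITY_DN5877_c0_g1_i7) was at 2.37, 0.758 and 9.995. Both were highest in fly 3, under either scaling.

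Intracellular lipases, which act on membrane lipids, signalling lipids and lipid stores, reached lower levels. Phosphatidylserine lipase ABHD16A (TRINITY_DN6952_c1_g1_i2), which makes lysophosphatidylserine in mammals, was at 80.1, 101 and 87.6 FPKM. As deposited it was among the 5 steadiest members, with a coefficient of variation of 11.9%. The lipase named (Lyso)-N-acylphosphatidylethanolamine lipase (TRINITY_DN21238_c0_g1_i8), a step towards N-acylethanolamines, was at 15.1, 15.3 and 37.1 FPKM, so flies 1 and 2 were level and fly 3 was higher. Hormone-sensitive lipase (TRINITY_DN4584_c0_g1_i6), which releases fatty acids from stored fat, was at 8.07, 6.86 and 15.7 FPKM with fly 3 again highest. Diacylglycerol lipase-alpha (TRINITY_DN20803_c0_g2_i1), which makes the signal lipid 2-arachidonoylglycerol in mammals, was at 2.80, 1.03 and 1.52 FPKM, but this 403-base unigene covers 15.8% of its hit and rests on 7 to 18 fragments per fly. Summed within a fly, secreted-type lipases exceeded intracellular ones 44.8-fold, 31.4-fold and 10.2-fold in flies 1, 2 and 3. Without the most abundant member of each group the mean log2 ratio was -0.75 instead of 4.61, so the excess rests on lipase 3-like.

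Carriers hold fatty acids and acyl-CoA in solution or move them across membranes. The probable fatty acid-binding protein (TRINITY_DN4803_c3_g1_i4) was the most abundant, at 110.02, 57.6 and 156 FPKM, with fly 2 lowest. Acyl-CoA-binding domain-containing protein 6 (TRINITY_DN5291_c0_g1_i1) was at 63.3, 59.4 and 89.2 FPKM. Of the pair of long-chain fatty acid transport protein 4 unigenes, which in mammals couple fatty acid uptake to activation, TRINITY_DN7139_c0_g1_i1 was at 12.2, 13.6 and 9.83 FPKM. The other (TRINITY_DN10632_c0_g1_i4) was at 0.546, 1.07 and 4.74 FPKM, so fly 3 was lowest for the first and highest for the second.

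Enzymes of fatty acid synthesis and modification had the highest median between-fly SD of the 8 functions, 0.98 on the log2 scale against 0.38 over all unigenes. Their lowest fly was nearly always fly 2 as deposited, and less often after scaling. Their share of the summed FPKM was 0.0445% for fly 1, 0.0272% for fly 2 and 0.0759% for fly 3. As deposited, 17 of the 19 were lowest in fly 2. Among the 14 with a mean of at least 5 FPKM, 12 were lowest in fly 2, against 57.5% of all unigenes, and 9 of 14 were so after median-of-ratios scaling, against 30.1%. The full order, highest in fly 3 and lowest in fly 2, was held by 11 of 14, against 45.6% of all unigenes. After scaling it was held by 8 of 14, against 19.9%. Over all 19, each with a mean of at least 1, it was held by 16, against 45.2% of such unigenes. The median log2 difference of fly 2 from the other flies was -1.33 over the 19, against -0.33 over all unigenes, and after scaling it was -0.94 against 0.02.

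The key enzyme, fatty acid synthase, builds palmitate from acetyl and malonyl units. Its longer unigene (TRINITY_DN1097_c0_g1_i5, 8321 bases, the longest member) was at 35.7, 21.1 and 83.4 FPKM in flies 1, 2 and 3. A second unigene of this name (TRINITY_DN2498_c0_g1_i1, 2464 bases) was at 9.81, 6.004 and 28.1 FPKM. They align to the same best hit, the first to residues 1 to 2030 and the second to residues 2033 to 2416, the end of the protein. The first was 3.64, 3.51 and 2.97 times as high as the second in flies 1, 2 and 3, so both had the same order of flies at unequal levels. Merged by length they gave 29.8, 17.6 and 70.7 FPKM. The counts of synthesis enzymes take them as separate unigenes.

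**Figure D2:**
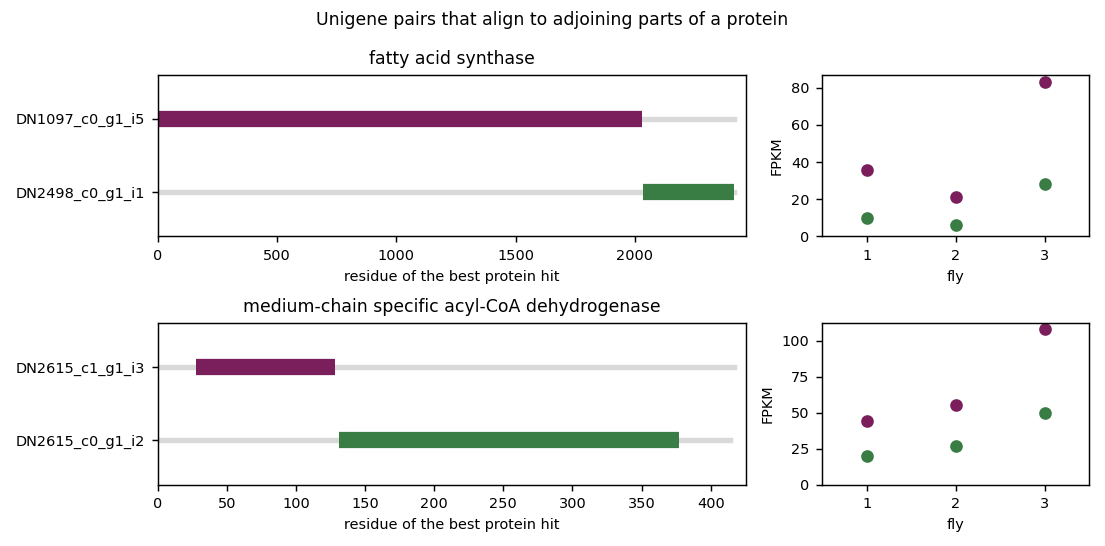
Left, residues of the best protein hit (grey, full length) that each unigene of a pair aligns to. Right, FPKM of the same unigenes in each fly. The fatty acid synthase unigenes share 1 hit, and those of medium-chain specific acyl-CoA dehydrogenase have hits in 2 species. In each pair the alignments adjoin and the flies have the same order.

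Acyl-CoA desaturases, which place a double bond in the chain, included 2 unigenes that were under 1 FPKM in fly 2. An acyl-CoA Delta(11) desaturase (TRINITY_DN393_c0_g3_i4) was at 18.9, 0.599 and 7.68 FPKM, and the 95% Poisson interval in fly 2 was 0.355 to 0.947. Another (TRINITY_DN7138_c0_g1_i1) was at 5.53, 0.216 and 12.2 FPKM, with 5 fragments in fly 2. The remaining unigene of this kind, Delta(11) desaturase-like (TRINITY_DN393_c0_g1_i18), differed less, at 15.9, 6.35 and 31.9 FPKM. It comes from the same Trinity read cluster as the first, so their reads may be shared in part, yet it was highest in fly 3 and the first in fly 1. The acyl-CoA Delta-9 desaturase (TRINITY_DN938_c0_g1_i3), which makes oleate-type fatty acids, was at 30.2, 24.4 and 58.4 FPKM and showed the smallest differences of the 4.

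Fatty acyl-CoA reductases make fatty alcohols, from which insects form waxes and, in some cells, ether lipids. A wat-like reductase (TRINITY_DN5155_c0_g1_i6), named after waterproof, a Drosophila gene needed for air filling of the tracheae, had the widest range of all members. It was at 12.9, 0.349 and 44.1 FPKM, from 383, 11 and 1205 fragments, with a 95% Poisson interval of 0.174 to 0.624 FPKM in fly 2. A second wat-like reductase (TRINITY_DN15002_c0_g2_i12) was at 1.54, 0 and 3.09 FPKM. Set against a floor of 3 fragments in fly 2, or 0.0893 FPKM, it was 17.3-fold higher in fly 1 and 34.6-fold higher in fly 3. These are not 95% lower bounds, as the 95% Poisson upper limit in fly 2 was 0.110 FPKM. The reductase named CG5065 isoform X1 (TRINITY_DN6071_c0_g1_i1) was at 1.18, 0.251 and 5.01 FPKM, with the same order. The putative reductase CG8306 (TRINITY_DN5157_c0_g1_i21) was at 8.39, 7.62 and 13.5 FPKM, so it differed far less between flies.

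Elongases add 2-carbon units to long chains. Of the 5 unigenes named for this step, TRINITY_DN3165_c0_g2_i2 was at 25.3, 12.5 and 67.4 FPKM and TRINITY_DN5454_c0_g1_i23 at 2.89, 0.0719 and 3.77, the latter from 76, 2 and 91 fragments. The elongation of very long chain fatty acids protein 6 (TRINITY_DN14604_c1_g1_i11), whose mammalian namesake elongates palmitate, was at 23.9, 17.3 and 26.1 FPKM. The other steps of the elongation cycle differed among themselves. Very-long-chain 3-oxoacyl-CoA reductase (TRINITY_DN10213_c0_g1_i6) was at 46.5, 41.8 and 40.9 FPKM, a coefficient of variation of 6.97%, and the dehydratase hpo-8 (TRINITY_DN480_c0_g2_i2) was at 12.0, 11.1 and 24.4, a coefficient of variation of 47.1%. A second dehydratase (TRINITY_DN3082_c0_g1_i1) was at 3.00, 2.34 and 4.72 FPKM. The elongase AAEL008004 (TRINITY_DN14249_c0_g1_i19), at 6.83, 7.95 and 5.58 FPKM, was the only one of the 19 that was highest in fly 2 as deposited.

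Unigenes with a mean of 5 FPKM or more were called variable if FPKM + 1 in the highest fly was 4 or more times that in the lowest. This held for 7 of the 42 members at that mean, or 16.7%, against 9.42% of all unigenes. Of the 7, 6 were synthesis enzymes, all lowest in fly 2. That was 6 of the 14 synthesis enzymes at that mean. Of the 28 other members at that mean 1 was variable, or 3.57%, below the share of all unigenes. Of all unigenes at that mean, 5.16% were variable and lowest in fly 2. Among all 495 variable unigenes, 271 were lowest in fly 2. The 6 variable synthesis enzymes were 3 Delta(11) desaturases, the wat-like reductase, the elongase TRINITY_DN3165_c0_g2_i2 and the shorter fatty acid synthase unigene. The pancreatic triacylglycerol lipase was the seventh variable member. The longer fatty acid synthase unigene, at 3.82-fold, and lipid droplet-associated hydrolase, at 3.95-fold, lay just under the threshold, and the shorter one, at 4.15-fold, just above. Merged by length, the synthase pair was at 3.85-fold, under the threshold. With this pair and the medium-chain specific acyl-CoA dehydrogenase pair merged, 6 members were variable. Without fly 2 only the pancreatic lipase was variable, and without fly 3 the count was 3. After median-of-ratios scaling 5 members were variable, against 7.63% of all unigenes: the wat-like reductase, 2 Delta(11) desaturases, the pancreatic lipase and lipase 3-like.

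**Figure D3:**
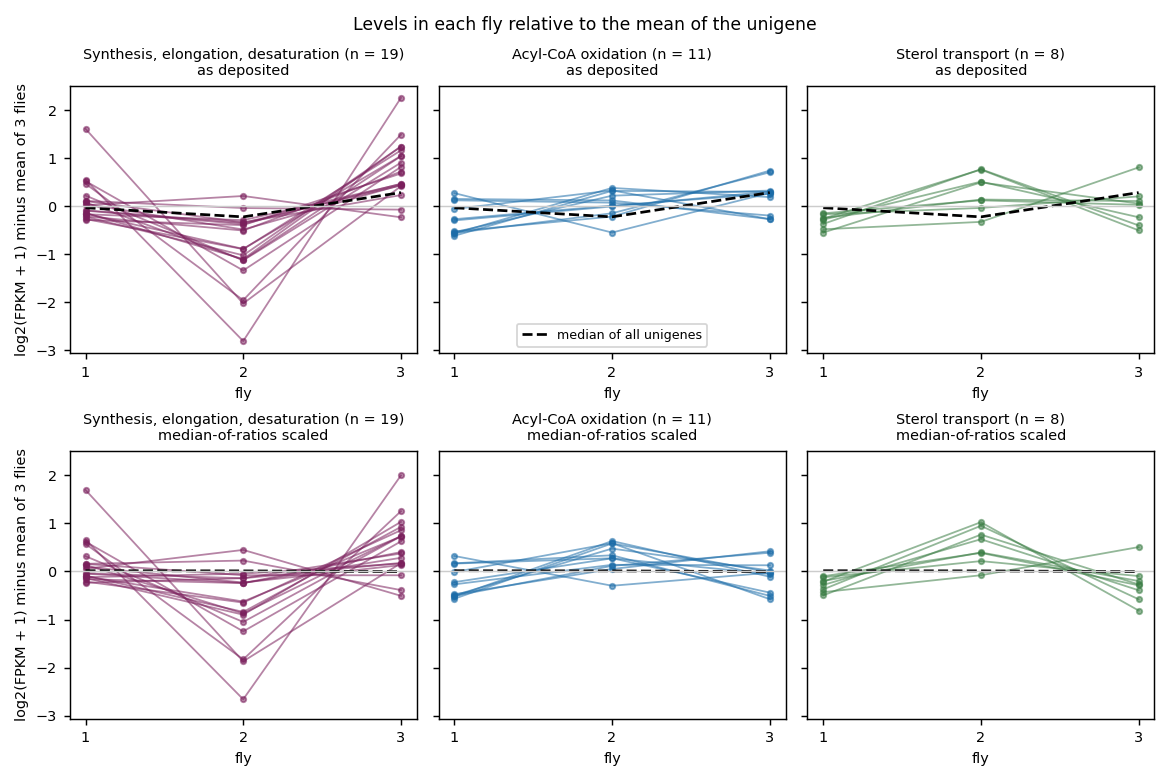
Each line joins the 3 flies of 1 unigene, as log2(FPKM + 1) minus its mean over flies, for synthesis, acyl-CoA oxidation and sterol transport, with values as deposited (top) and after median-of-ratios scaling (bottom). The dashed line is the median of all unigenes with a mean of at least 1. Most synthesis enzymes dip in fly 2 under both scalings, most sterol transport unigenes peak there, and most oxidation unigenes lie lowest in fly 1.

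Storage of fat was represented by 2 names. Diacylglycerol O-acyltransferase 1 (TRINITY_DN14936_c0_g1_i66) adds the last acyl chain of triacylglycerol. As deposited it was the steadiest member of all with a mean of at least 5. It was at 8.40, 9.19 and 8.55 FPKM, a coefficient of variation of 4.84%. Lipid droplet-associated hydrolase (TRINITY_DN3814_c0_g1_i8), an enzyme found on lipid droplets, was at 38.6, 13.9 and 57.9 FPKM, in the same order as fatty acid synthase. As deposited, the enzyme that closes triacylglycerol synthesis was level across flies in which the synthase differed. With median-of-ratios scaling this enzyme was highest in fly 2, at 10.97, and lowest in fly 3, at 6.75. The longer synthase unigene was then at 25.2 in fly 2 and 65.8 in fly 3.

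Acyl-CoA oxidation showed another order of flies. The share of its 11 unigenes was 0.0307% for fly 1, 0.0383% for fly 2 and 0.0492% for fly 3. Of the 9 with a mean of at least 5, 6 were lowest in fly 1, against 24.4% of all unigenes, and after scaling it was again 6 of 9, against 25.4%. Acyl-CoA dehydrogenases perform the first step of beta-oxidation, and 4 members were named for the medium-chain enzyme. The probable medium-chain specific acyl-CoA dehydrogenase (TRINITY_DN2615_c1_g1_i3) was at 44.5, 55.3 and 108 FPKM. A unigene that shares only the DN2615 part of its Trinity name (TRINITY_DN2615_c0_g1_i2) was at 20.05, 27.0 and 49.5 FPKM. The first aligns to residues 28 to 128 of its hit and the second to residues 131 to 377 of a hit of nearly equal length, and their ratio was close in the flies, at 2.22, 2.05 and 2.18. Whether they are parts of 1 transcript was not tested.

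The last step of the cycle, 3-ketoacyl-CoA thiolase (TRINITY_DN6899_c0_g2_i4), was at 17.1, 33.6 and 33.1 FPKM. As deposited, fly 1 lay below flies 2 and 3, which were level. After scaling the thiolase was at 17.5, 40.1 and 26.1, with fly 1 still lowest. Very long-chain specific acyl-CoA dehydrogenase (TRINITY_DN577_c0_g2_i5) was at 18.7, 23.0 and 27.5 FPKM. Not every name in this group stands for beta-oxidation of straight chains. The 2-hydroxyacyl-CoA lyase 1 (TRINITY_DN3503_c0_g1_i43), a peroxisomal enzyme of alpha-oxidation, was at 35.8, 34.6 and 28.5 FPKM. It was highest in fly 1 as deposited and in fly 2 after scaling. Short/branched chain specific acyl-CoA dehydrogenase (TRINITY_DN7631_c0_g1_i5), which acts in isoleucine breakdown, was at 19.6, 25.9 and 16.8 FPKM. The ratio of summed synthesis to summed oxidation was 1.45, 0.711 and 1.54 in flies 1, 2 and 3, so fly 2 was the one fly with less synthesis than oxidation by summed FPKM. Weighted by reads this turned, with 0.0491% of reads for synthesis and 0.0371% for oxidation in fly 2. The mean log2 ratio rose from 0.22 to 1.24 when unigenes were weighted by reads, which gives the long synthase more weight.

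The 3 other acyl-CoA enzymes had means of 6.39 to 10.8 FPKM, around the median of 8.69 over all unigenes. Acyl-CoA:lysophosphatidylglycerol acyltransferase 1-like (TRINITY_DN7326_c0_g2_i10), a phospholipid remodelling enzyme, was at 10.8, 12.1 and 9.32 FPKM. The medium-chain acyl-CoA ligase ACSF2 (TRINITY_DN4567_c0_g1_i8) was at 7.82, 10.7 and 9.61 FPKM, and alpha-methylacyl-CoA racemase (TRINITY_DN4273_c0_g1_i5), needed to oxidise branched chains, at 8.18, 4.43 and 6.55. The racemase differed most between flies, with a coefficient of variation of 29.5%. The median over all unigenes with a mean of at least 5 FPKM was 26.6%.

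Sterol transport was the second most abundant function by summed FPKM, with shares of 0.113%, 0.223% and 0.164% for flies 1 to 3. Its peak lay in fly 2. By share of reads, synthesis exceeded sterol transport in fly 1, at 0.0799% against 0.0679%, and in fly 3, at 0.154% against 0.0911%. In fly 2 it was lower, at 0.0491% against 0.126%. An NPC intracellular cholesterol transporter 2 homolog a-like unigene (TRINITY_DN1791_c0_g1_i3, 592 bases), named for a small soluble protein that hands sterols to NPC1, was at 619, 1278 and 941 FPKM and ranked 101 among all unigenes. It made up 87.0%, 90.4% and 89.4% of its group, and its identity to the hit, 41.2%, was the second lowest of all members. A second NPC2 name (TRINITY_DN315_c0_g1_i13) was at 13.6, 18.1 and 17.6 FPKM, again lowest in fly 1. NPC1 proteins are membrane proteins that move sterols out of endosomes or, in the case of Drosophila Npc1b, absorb them from food in the midgut. The unigene named NPC intracellular cholesterol transporter 1 homolog 1b (TRINITY_DN5259_c0_g1_i8, 5945 bases) was the highest of 3 NPC1 names, at 24.6, 51.1 and 20.6 FPKM, with fly 2 far above the other flies.

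The other NPC1 names lacked that peak as deposited. NPC intracellular cholesterol transporter 1 (TRINITY_DN72_c0_g1_i4) was at 10.4, 11.5 and 13.7 FPKM, and the NPC1-like unigene (TRINITY_DN643_c0_g1_i3) at 6.66, 7.53 and 17.7. Both were highest in fly 3, but after scaling the first was highest in fly 2, at 10.6, 13.7 and 10.8. Sterol carrier protein 2-like (TRINITY_DN375_c0_g1_i8), a peroxisomal thiolase with a lipid-binding domain, was at 35.4, 42.9 and 40.1 FPKM. All 3 sterol carrier names were highest in fly 2, the other 2 at means of 1.82 and 1.23 FPKM. Of the 6 sterol transport unigenes with a mean of at least 5, 5 were lowest in fly 1, against 24.4% of all unigenes, and 3 after scaling, against 25.4%. Of the same 6, 4 were highest in fly 2, against 13.5% of all unigenes, and after scaling 5 of 6 were, against 38.1%. Summed NPC2 exceeded summed NPC1 15.2-fold, 18.5-fold and 18.4-fold per length, and without the most abundant member of each the mean log2 ratio was -0.41 instead of 4.11.

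**Figure D4:**
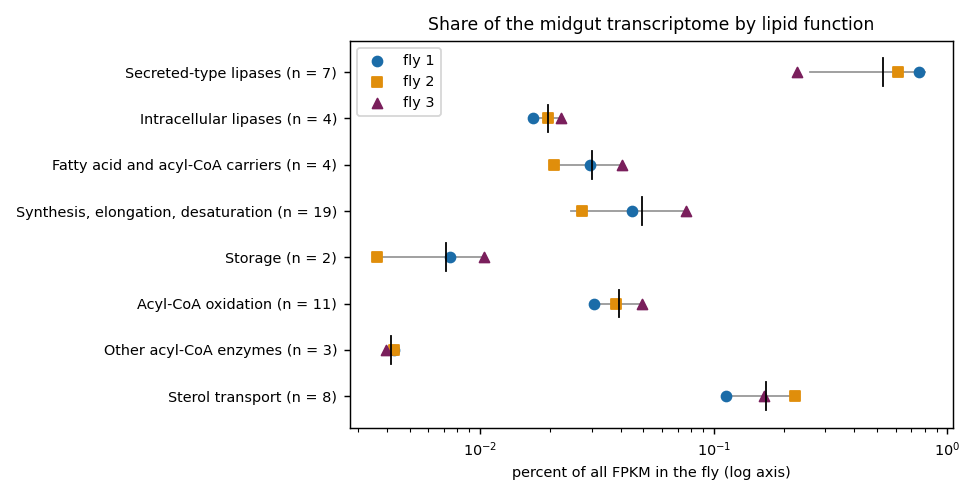
Percent of all FPKM held by each function in each fly, on a log axis. Black ticks are means and grey bars are ± 1 SD over 3 flies. Fly 3 is lowest for secreted-type lipases, fly 2 is lowest for synthesis and highest for sterol transport, and fly 1 is lowest for oxidation and sterol transport.

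Enzymes of the same pathways outside the name rule were set beside the members. Among 13 unigenes of fatty acid entry into mitochondria and beta-oxidation, 0 of the 12 with a mean of at least 5 were variable, against 9.42% of all unigenes. Of these 12, 8 were lowest in fly 1 as deposited, against 24.4% of all unigenes, and 8 after scaling, against 25.4%. Electron transfer flavoprotein subunit alpha (TRINITY_DN1035_c0_g1_i4), which takes electrons from acyl-CoA dehydrogenases, was at 111, 121 and 178 FPKM. Subunit beta (TRINITY_DN9964_c0_g3_i1) was at 94.0, 138 and 140 FPKM, and trifunctional enzyme subunit beta (TRINITY_DN2091_c0_g1_i8) at 48.6, 65.8 and 81.8. Among 11 unigenes of fatty acid activation and synthesis, 4 of the 6 with a mean of at least 5 were lowest in fly 2, near the 57.5% of all unigenes, and 3 of 6 were after scaling, against 30.1%. Acetyl-CoA carboxylase (TRINITY_DN1022_c0_g1_i3), which makes the malonyl-CoA used by fatty acid synthase, was at 12.1, 6.17 and 36.5 FPKM. It was the only variable one of the 6 with a mean of at least 5, against 9.42% of all unigenes. After scaling 0 of 6 were variable, against 7.63%. ATP-citrate synthase (TRINITY_DN887_c0_g1_i27), which supplies acetyl-CoA, was at 11.4, 8.38 and 19.1 FPKM, in the same order, while long-chain-fatty-acid--CoA ligase 4 (TRINITY_DN275_c0_g1_i10) was level at 53.9, 51.2 and 53.0.

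Of 10 unigenes of glycerolipid assembly, 1 was variable, near the 9.42% of all unigenes. It was phosphatidate phosphatase LPIN3 (TRINITY_DN62_c0_g2_i5), a lipin that makes diacylglycerol, at 11.1, 11.3 and 90.0 FPKM. The NAD-dependent glycerol-3-phosphate dehydrogenase (TRINITY_DN1536_c0_g1_i9) was at 179, 151 and 92.4 FPKM and glycerol-3-phosphate acyltransferase 3 (TRINITY_DN7448_c0_g1_i5) at 39.4, 53.6 and 38.3. Of 15 unigenes of sterol and lipid uptake and control, 0 of the 9 with a mean of at least 5 were variable, against 9.42% of all unigenes. Of these 9, 5 were lowest in fly 2, near the 57.5% of all unigenes, and after scaling 1 of 8 was, against 30.1%. They include sterol regulatory element-binding protein 1 (TRINITY_DN23397_c0_g1_i20), which in Drosophila controls fatty acid synthesis genes, at 46.2, 36.0 and 62.0 FPKM. StAR-related lipid transfer protein 7 (TRINITY_DN6482_c0_g2_i26) was level at 44.8, 51.8 and 51.1 FPKM, as was oxysterol-binding protein 1 (TRINITY_DN1394_c0_g2_i13) at 27.6, 28.6 and 30.01. Of 13 phospholipases, 1 of the 8 with a mean of at least 5 was variable, against 9.42% of all unigenes. It was a Phospholipase A2 (TRINITY_DN4893_c0_g2_i1) at 12.0, 5.01 and 57.1 FPKM. Phospholipase A1 VesT1.02-like (TRINITY_DN261_c0_g1_i17) was highest in fly 1, at 51.1, 20.01 and 19.6, and phospholipase D2 (TRINITY_DN39844_c0_g1_i15) was at 13.9, 14.6 and 25.3.

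Lipid-carrying lipoproteins and lipocalins were mostly lowest in fly 1. The 16 unigenes of this list, which also holds hexamerin names with means under 5 FPKM, summed to 208, 240 and 779 FPKM. Of the 8 with a mean of at least 5, 7 were lowest in fly 1 as deposited, against 24.4% of all unigenes, and 7 after scaling, against 25.4%. Of the same 8, 6 were variable, against 9.42% of all unigenes, and 7 after scaling, against 7.63%. Apolipoprotein D is a lipocalin, a small carrier of lipids. Its most abundant unigene (TRINITY_DN7438_c0_g1_i2) was lowest in fly 3, at 186, 119 and 49.5 FPKM. A second (TRINITY_DN730_c0_g1_i10) ran the other way, at 0.610, 20.6 and 237 FPKM, as did another (TRINITY_DN176_c0_g1_i3) at 11.9, 20.2 and 156.

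Markers of the labelled tissue and of other cell types were summed beside these results. They were matched by name, so not every name is a marker of its cell type. The enterocyte list also holds antichymotrypsins, chymotrypsin inhibitors and neutral alpha-glucosidase AB, and the muscle list holds a non-muscle myosin. The 76 midgut enterocyte names, such as trypsins, maltases and V-type ATPase subunits, summed to 18778, 20261 and 14808 FPKM in flies 1, 2 and 3, and 59, 61 and 72 of them reached an FPKM of 1. The 9 fat body names, of the insect organ that stores and makes fat, are also in the lipoprotein list and summed to only 6.75, 24.3 and 97.3 FPKM, with 2, 4 and 7 at an FPKM of 1 and 1 of them at 0 in fly 1. The 6 names of oenocytes, the cells that make cuticle lipids, and of cuticle summed to 255, 16.0 and 551 FPKM, with 4, 3 and 5 at an FPKM of 1 and 2 at 0 in fly 2. In flies 1 and 3 nearly all of that sum was cuticle protein, and the oenocyte marker cytochrome P450 4g15 (TRINITY_DN4975_c0_g1_i7) was level at 7.86, 7.23 and 7.75 FPKM. The 32 muscle names summed to 1170, 1125 and 2409 FPKM, the 13 hemocyte names to 67.7, 55.6 and 183, and the 8 Malpighian tubule names to 94.0, 147 and 246. At an FPKM of 1 were 31, 30 and 32 muscle names, 7, 10 and 11 hemocyte names and 3, 5 and 8 Malpighian tubule names. The order of the synthesis enzymes, highest in fly 3 and lowest in fly 2, was counted among names with a mean of at least 5, where 45.6% of all unigenes had it, and 19.9% after scaling. It was held by 11 of 53 enterocyte names, 0 of 2 fat body names, 10 of 26 muscle names, 2 of 5 hemocyte names, 0 of 4 Malpighian tubule names and 3 of 4 oenocyte and cuticle names. After scaling it was held by 7 of 51, 0 of 2, 4 of 25, 1 of 4, 0 of 4 and 3 of 4 of these names. The part of these cells in the differences of lipid unigenes was not tested.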

How the data were processed

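RNA of 3 midguts was sequenced from KAPA RNA HyperPrep libraries of total RNA extracted with TRIzol, per the labels' protocols. The column of fly 3, which carries the number 4, was matched by its description in the labels. The deposited table gives FPKM per unigene and fly, and the percent of identical residues in the best protein hit, per the file headers. No aligner, counting tool or protein database is given in the sources used here. FPKM times length summed to 1e+09 in each fly. That product, over its smallest non-zero value in the fly, was a whole number within 0.001 for 97.1% to 97.3% of unigenes. Even numbers made up 81.2% to 81.4% of the whole values above 0, so counting error was computed for fragments of 2 reads. Exact 95% Poisson intervals and floors of 3 fragments cover counting error only, since reads without molecular identifiers are not independent molecules.

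Values were analysed as log2(FPKM + 1), which understates differences of low unigenes, with Python 3.11.15, numpy 2.4.6, pandas 2.3.3 and scipy 1.17.1. No count model was fitted to FPKM, as there is 1 group. Calls of variable unigenes, medians and scaling were tested on simulated counts with known changes in some unigenes. These counts held counting error only, with no other spread between flies and no shift between libraries. False calls under the real spread, and the removal of a shift by scaling, were thus not tested. Members and lists were chosen with earlier results of these data known. Within the lists, some patterns that matched only letters inside other words were corrected after the names were seen. Others were left, such as trypsin inside antichymotrypsin. Receptor names were left out of the fat body and lipoprotein lists. Named members are the 3 with the highest mean FPKM of each function (all of a function with 5 or fewer), all variable ones and the 5 steadiest with a mean of at least 5, 31 in all, and the 3 highest of each pathway list. Other members were named after their values were seen.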

Additional observations from a re-analysis of the deposited data

How the results depend on the processing

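No paired analysis was possible because all libraries belong to 1 group. Leaving out each fly gave 0.771% to 0.976% of FPKM for the members. Weighted by reads, the shares were 1.22% for all members, 0.0951% for sterol transport, 0.0260% for intracellular lipases, 0.931% for secreted-type lipases, 0.0944% for synthesis and 0.00457% for other acyl-CoA enzymes, and the log2 ratios were 1.24 for synthesis to oxidation and 1.15 for NPC2 to NPC1. Without the most abundant member, the shares were 0.320% for all members, 0.0179% for sterol transport, 0.00137% for storage, 0.00542% for intracellular lipases, 0.00358% for secreted-type lipases, 0.0133% for carriers, 0.0285% for oxidation and 0.00248% for other acyl-CoA enzymes. The log2 ratios then reversed to -0.75 for secreted-type to intracellular lipases and -0.41 for NPC2 to NPC1, as each rests on 1 unigene.

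The count of variable members was 1 to 6 when a fly was left out, and 11 with no filter on low values, which adds 4 members with means of 1.54 to 4.38 FPKM. Median-of-ratios scaling, an alternative chosen after seeing the data for this function, left 3 of 14 synthesis enzymes variable instead of 6 of 14. The share over all unigenes was 7.63% after scaling and 9.42% as deposited. The median between-fly SD of log2 values was 0.53 and ran from 0.33 to 0.59 with a fly left out. The median difference of fly 1 over members, -0.22, was 0.040 without fly 3 and -0.54 without fly 2. The cause was not tested. All members had an insect hit with at least 40% identity, so that choice removed none. Unigenes of few fragments, such as those with 2 to 11 in fly 2, are limited by depth.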

Other observations

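The low fly 2 of some lipid enzymes was shared by other unigenes, looked up after these values were seen. Of 5256 unigenes with a mean of at least 5 FPKM, 83 (1.58%) were at least 4-fold lower in fly 2 than in each of the other flies, in FPKM + 1. They include 3 of the 42 members, the wat-like reductase and 2 Delta(11) desaturases, and 3 of the 4 unigenes with cuticle names. Among them were flexible cuticle protein 12-like (TRINITY_DN3248_c0_g1_i3), a structural protein of the insect cuticle, at 241, 6.47 and 501 FPKM in flies 1, 2 and 3, and endocuticle structural glycoprotein ABD-4-like (TRINITY_DN192_c0_g1_i9) at 10.6, 0.139 and 54.8. Kelch names, many of which belong to adaptors of ubiquitin ligases, made up 5 of the 83, out of 35 kelch names at that mean, among them kelch-like protein 25 (TRINITY_DN712_c0_g1_i9) at 258, 19.9 and 221 FPKM. Heat shock protein 70-S1 (TRINITY_DN688_c0_g1_i3), a stress chaperone, was at 524, 18.3 and 180 FPKM.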
